A study of Rattus norvegicus with 6 samples.

Results

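The genes described here build, bind and anchor the actin cytoskeleton of the lens. The set was a list of 55 named genes: actins, tropomyosins and other filament-binding proteins, myosins, crosslinkers, assembly factors, focal adhesion and LIM proteins, intermediate filaments and regulators. Of the 55, 50 had a probe set of their own on the array, and 43 of these reached a log2 signal of at least 5 on at least 1 of the 6 arrays and were tested among 5785 probe sets. The other 7, Tmsb4x, Lmod1, Tpm3, Actg2, Tpm2, Csrp2 and Fhl2, stayed under 5 on every array. Cfl1, Myl6 and Actg1 were covered only by probe sets shared with other gene symbols, and no probe set was matched to Cnn1 or Cnn2.

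Whole lenses of 6-week-old male Sprague-Dawley rats were cultured ex vivo in M199 medium with 0.1% bovine serum albumin, and their total RNA was hybridised to Rat Gene 2.0 ST arrays. The AZD0156 and KU55933 samples (1 array each) were lenses kept for 6 days in 30 mM galactose, which clouds the lens, with an Atm kinase inhibitor at 20 µM in DMSO for the last 3 days. The Galactose samples (3 arrays) had 30 mM galactose for 6 days with DMSO, and the Control (1 array) had no galactose and sterile water as its vehicle. No DMSO is stated for the Control, so galactose and DMSO cannot be told apart against it. Neither the labels nor the methods say how many lenses went into an array, or whether the galactose replicates were separate cultures, so the p-values measure only the spread between these 3 arrays. The comparisons address which transcripts differ in lenses made opaque by galactose and which differ again when Atm is inhibited.

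Actin filaments give lens epithelial and fibre cells their shape and tie them to each other and to the capsule. Tropomyosins, calponins and transgelins bind along the filament, myosins pull on it, actinins and filamins crosslink it, and talin, vinculin and zyxin connect it to integrins at focal adhesions. Smooth muscle actin, encoded by Acta2, and transgelin are widely used as marks of lens epithelial cells that take on a contractile, mesenchymal form. Many genes of this set are known targets of serum response factor (SRF), which binds a DNA element called the CArG box and responds to the pool of free actin through its cofactors.

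The labelled tissue was checked against lens markers. The 6 lens fibre genes measured (Cryab, Cryba1, Crygs, Mip, Lim2 and Bfsp1) lay between 10.88 and 13.32 on the log2 scale on all arrays. Of them 0 were called in any comparison (limma). At an unadjusted p under 0.05 there was 1 in galactose against Control and 1 in AZD0156 against KU55933, beside 23.1% and 11.5% of all probe sets. Genes listed as markers of the tissues around the lens were mostly under 5 on every array: 7 of 8 smooth muscle genes, 5 of 5 pericyte genes, 5 of 6 fibroblast genes, 4 of 5 skeletal muscle genes, 5 of 5 pigmented epithelium genes, and all measured blood, immune and endothelial genes. The exceptions were Des, Pdgfra and Ckm. Pdgfra was at 4.79 to 5.41 in galactose, against 7.32 in the Control (adjusted p = 0.0235, limma with Benjamini-Hochberg adjustment). Which cells of the lens or around it the Pdgfra signal came from was not tested.

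Markers of the lens epithelium, the single cell layer under the front capsule, were not level across the arrays. Their summed linear signal was 637 with AZD0156 and 606 with KU55933, against 466, 1059 and 1085 on galactose replicates 1, 2 and 3, and the Control was at 1110. The inhibitor arrays and galactose replicate 1 were thus low together. Gja1, the gap junction protein of the epithelium, showed the widest gap among the galactose arrays, with 6.26 for AZD0156 and 6.73 for KU55933, against 5.68, 7.88 and 7.57 in galactose, and 6.93 in the Control. Aqp1 and Foxe3 were lower in galactose by a difference of -2.43 and -1.87 on the log2 scale (adjusted p = 0.0108 and 0.0352, limma), and Pax6, Cdh1, Cdh2 and Gja1 passed no test. In whole lenses, fewer cells of a type and less RNA per cell cannot be told apart, and the part of the epithelial markers in the differences below was not tested.

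**Figure D1:**
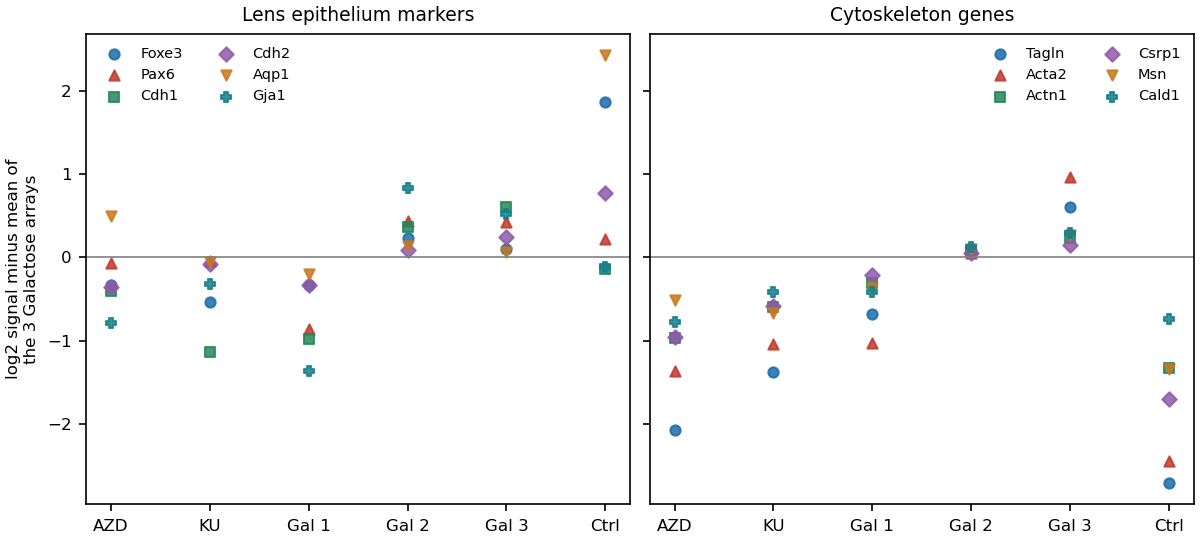
Log2 signal minus the mean of the 3 galactose arrays, on each of the 6 arrays, of lens epithelium markers (left) and of 6 cytoskeletal genes chosen after their values were seen (right). Before the mean is taken off, Gja1 is at 6.26 with AZD0156, 6.73 with KU55933 and 5.68 on galactose replicate 1, below both other galactose arrays. Tagln is lower with AZD0156, with KU55933 and on galactose replicate 1 than on galactose replicates 2 and 3.

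Galactose lenses had more signal than the Control for most of the actin set. The median difference, galactose minus Control, was 0.52 on the log2 scale over the 43 genes and -0.02 over all 5785 probe sets tested, and 34 of the 43 differences were positive, beside 48.9% of all probe sets. Transgelin (Tagln), Csrp1, Pdlim5 and Aif1l rose and desmin (Des) fell. That is 4 of 43 called higher, or 9.30%, beside 1.61% of all probe sets tested, and 1 of 43 called lower, or 2.33%, beside 1.26%. Of these, Aif1l reached the signal minimum only through galactose and Des only through the Control, the groups in which they were high, as Ankrd1 and Myl9 did through galactose. Among the other 39 members 3 rose, Tagln, Csrp1 and Pdlim5, and 0 fell in limma. The list was drawn up with earlier results of these arrays known, and the values of Tagln, Csrp1, Pdlim5 and Aif1l were among them. The shares of the set are thus no independent support for a rise of the set. At an unadjusted p under 0.05, 19 of the 43 were higher, beside 11.2% of all probe sets, and 3 lower, beside 11.9%. All galactose arrays lay above the Control for 27 of 43 genes (62.8%, against 32.8% of all probe sets) and below it for 7 (16.3%, against 35.2%). With each array centred on its median, Acta1, Actn1, Msn and Tpm4 passed as well. That made 9 genes in all, with 4.13% of all probe sets called in either direction. With no minimum signal Csrp1, Pdlim5 and Des alone passed, with 0.362% of all 19087 probe sets called. The calls rested on the replicates: in limma, without galactose replicate 1 there were 25 (22 higher, 3 lower, with 28.3% of all probe sets called), and without replicate 2 or without replicate 3 there were 0. Replicate 3 gave the highest galactose value for 27 of the 43 genes (62.8%, against 40.5% of all probe sets) and replicate 1 the lowest for 26 (60.5%, against 48.2%).

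**Figure D2:**
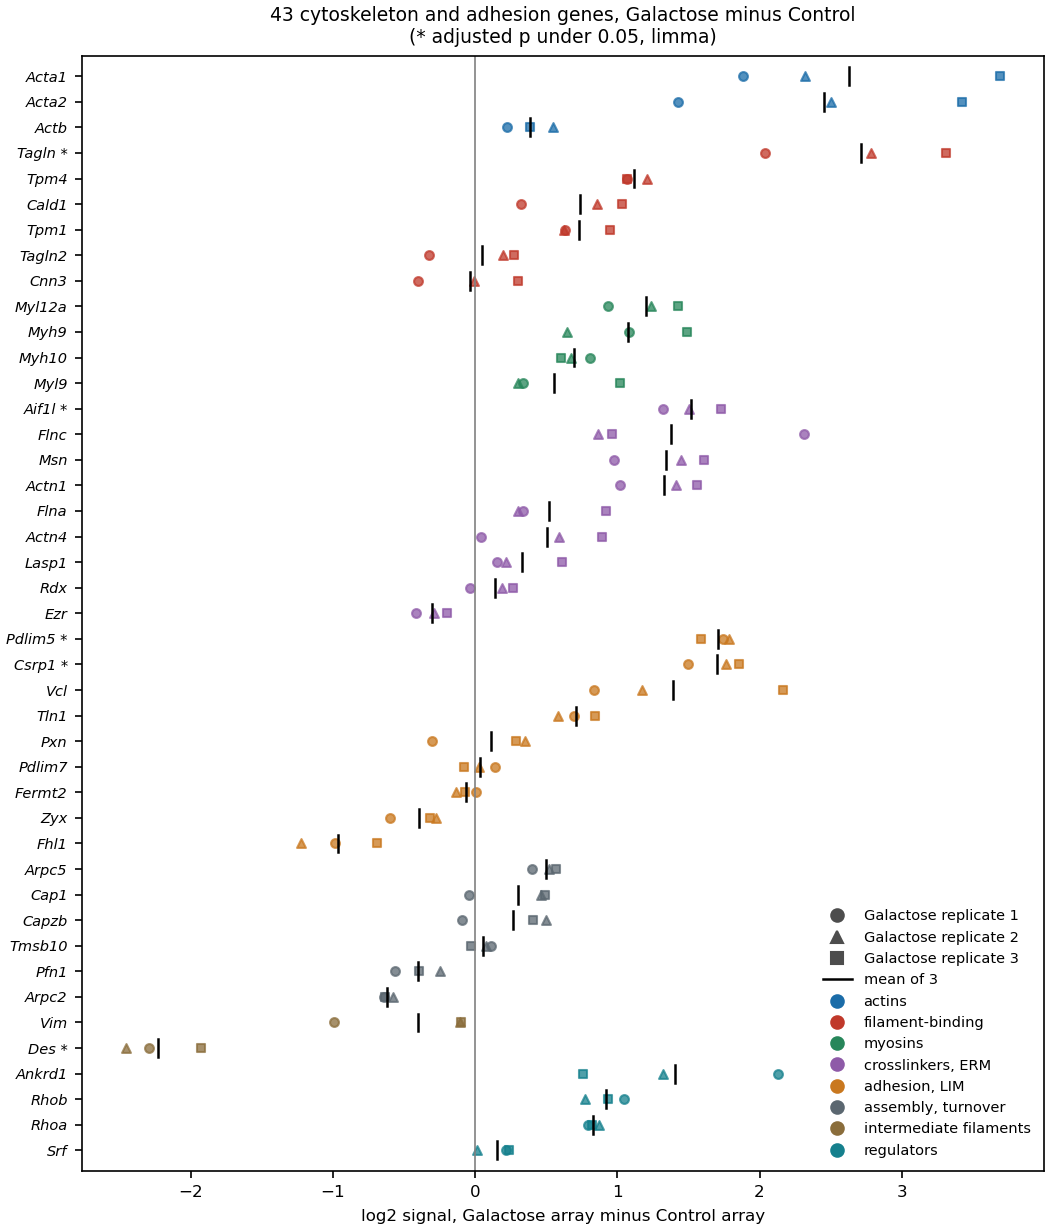
Difference in log2 signal, each of the 3 galactose arrays minus the Control, with a tick at their mean, for the 43 genes tested, grouped by role. An asterisk marks an adjusted p under 0.05 (limma). Of the 43 mean differences 34 are positive, and those of Tagln, Acta1 and Acta2 are the highest.

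The actins had the largest median difference of any role, 2.45 over 3 genes, with 0 called (limma). At an unadjusted p under 0.05, 2 of 3 were higher, beside 11.2% of all probe sets. Acta1, the actin of skeletal muscle, had a log2 signal of 6.24 with AZD0156, 5.17 with KU55933, 6.18, 6.63 and 7.99 in galactose, and 4.30 in the Control. Acta2, the smooth muscle actin, had 5.72 with AZD0156, 6.05 with KU55933, 6.06, 7.14 and 8.06 in galactose, and 4.64 in the Control. Every galactose array exceeded the Control for both genes, but replicate 3 was well above replicate 1, by 1.81 for Acta1 and by more for Acta2. The differences, galactose minus Control, were 2.63 ± 0.62 (SE) for Acta1 and 2.45 ± 0.66 for Acta2, and neither passed (adjusted p = 0.0757 and 0.0952, limma). Acta2 was measured by a probe set that the probe annotation does not name. Its identity was taken from the study's supplementary gene table, whose values match the probe set.

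The cytoplasmic actins sat near the top of the signal range. Actb had 11.36 with AZD0156, 11.47 with KU55933, 11.67, 11.99 and 11.82 in galactose, and 11.44 in the Control, a difference of 0.39 for galactose minus Control (adjusted p = 0.256). Both inhibitor arrays lay below all galactose arrays for Actb, and the AZD0156 array also lay below the Control. The 2 probe sets shared by Actg1, the other cytoplasmic actin, and Actg1l1 were called higher in galactose. The first had 10.48 with AZD0156, 10.80 with KU55933, 11.09, 11.90 and 11.76 in galactose, and 9.69 in the Control (adjusted p = 0.0385), and the second had 10.78, 11.01, then 11.32, 12.05 and 12.00, and 10.05 in the same order (adjusted p = 0.0400). Neither stayed under the threshold without replicate 2 (adjusted p = 0.0907 and 0.104), without replicate 3 (0.127 for both) or with no minimum signal (0.0797 and 0.0870), and without the trend in the moderation the second was at 0.0549 and the first at 0.0496. Actin genes are close in sequence, and hybridisation of one actin transcript to the probes of another was not tested.

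Promoters were scanned for the CArG box, the element of SRF, because of its known place upstream of actin genes. The window ran from 250 bases before to 50 after the start of each gene in RefSeq (build GRCr8), and the box reads the same on both strands. A match was present in 6 of the 46 promoters matched to the 55 listed genes (13.0%), against 451 of 27457 promoters of all genes (1.64%) and 60 of 4615 of genes tested on the arrays (1.30%). The 6 were Acta1, Actg1, Cnn2, Fhl1, Fhl2 and Srf itself. Among the promoters of the 35 tested members there were 3 matches (8.57%), and their genes did not share a direction: the difference, galactose minus Control, was 2.63 for Acta1, -0.96 for Fhl1 and 0.16 for Srf, none of them past the test. The stretches below, 150 bases ending at the base before the start, show where the boxes lie in the actin, Fhl1 and Srf promoters, with the CArG box in capitals.
Acta1, chr19:68784195-68784344, minus strand: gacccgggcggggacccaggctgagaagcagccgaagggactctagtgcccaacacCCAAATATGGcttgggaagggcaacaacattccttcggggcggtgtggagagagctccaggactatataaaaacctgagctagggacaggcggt
Actg1, chr10:106120952-106121101, minus strand: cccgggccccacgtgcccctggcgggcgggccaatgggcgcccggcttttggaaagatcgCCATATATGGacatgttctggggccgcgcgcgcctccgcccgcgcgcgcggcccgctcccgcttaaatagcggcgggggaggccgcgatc
Fhl1, chrX:139638346-139638495, plus strand: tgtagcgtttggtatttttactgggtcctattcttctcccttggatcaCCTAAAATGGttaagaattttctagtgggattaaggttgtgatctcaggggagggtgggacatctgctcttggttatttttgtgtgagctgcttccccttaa
Srf, chr9:21923926-21924075, plus strand: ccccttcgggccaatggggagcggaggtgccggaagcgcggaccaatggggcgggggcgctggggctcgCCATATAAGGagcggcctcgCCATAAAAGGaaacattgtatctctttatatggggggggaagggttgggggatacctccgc
Counting back from -1 at the base before the start, the box begins at -94 in Acta1, -90 in Actg1 and -102 in Fhl1, and Srf holds 2 boxes, at -81 and -61. These letters were not found in this window of Acta2, Csrp1, Pdlim5, Aif1l, Actn1, Flnc or Des. An exact form was required, so boxes that differ from it by a base were not counted. No promoter was matched to Tagln, Actb, Actn4, Ankrd1, Cap1, Fermt2, Lasp1 or Myl9, so these tested members were not scanned.

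Among the proteins that bind along the filament, Tagln moved most. Its signal was 5.83 with AZD0156, 6.54 with KU55933, 7.24, 7.98 and 8.51 in galactose, and 5.20 in the Control. All galactose arrays were above the Control and above both inhibitor arrays, and the inhibitor arrays stayed above the Control. The difference, galactose minus Control, was 2.71 ± 0.46 (SE, adjusted p = 0.0385, limma), and it did not pass without replicate 2 (adjusted p = 0.0717), without replicate 3 (0.0967) or with no minimum signal (0.0668). The tropomyosin gene Tpm4 had 6.05 with AZD0156, 6.11 with KU55933, 6.49 to 6.63 in galactose, and 5.42 in the Control, a difference of 1.12 with an adjusted p of 0.0510. Tpm1 differed by 0.73 and caldesmon (Cald1), which holds filaments against myosin, by 0.74, with adjusted p = 0.126 and 0.235. Calponin 3 (Cnn3) and Tagln2 were near level, at -0.04 and 0.05. Thus 1 of the 6 genes of this role rose (16.7%, against 1.61% of all probe sets), and the role's median difference was 0.74. The values of Tagln were known when the list was drawn up.

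**Figure D3:**
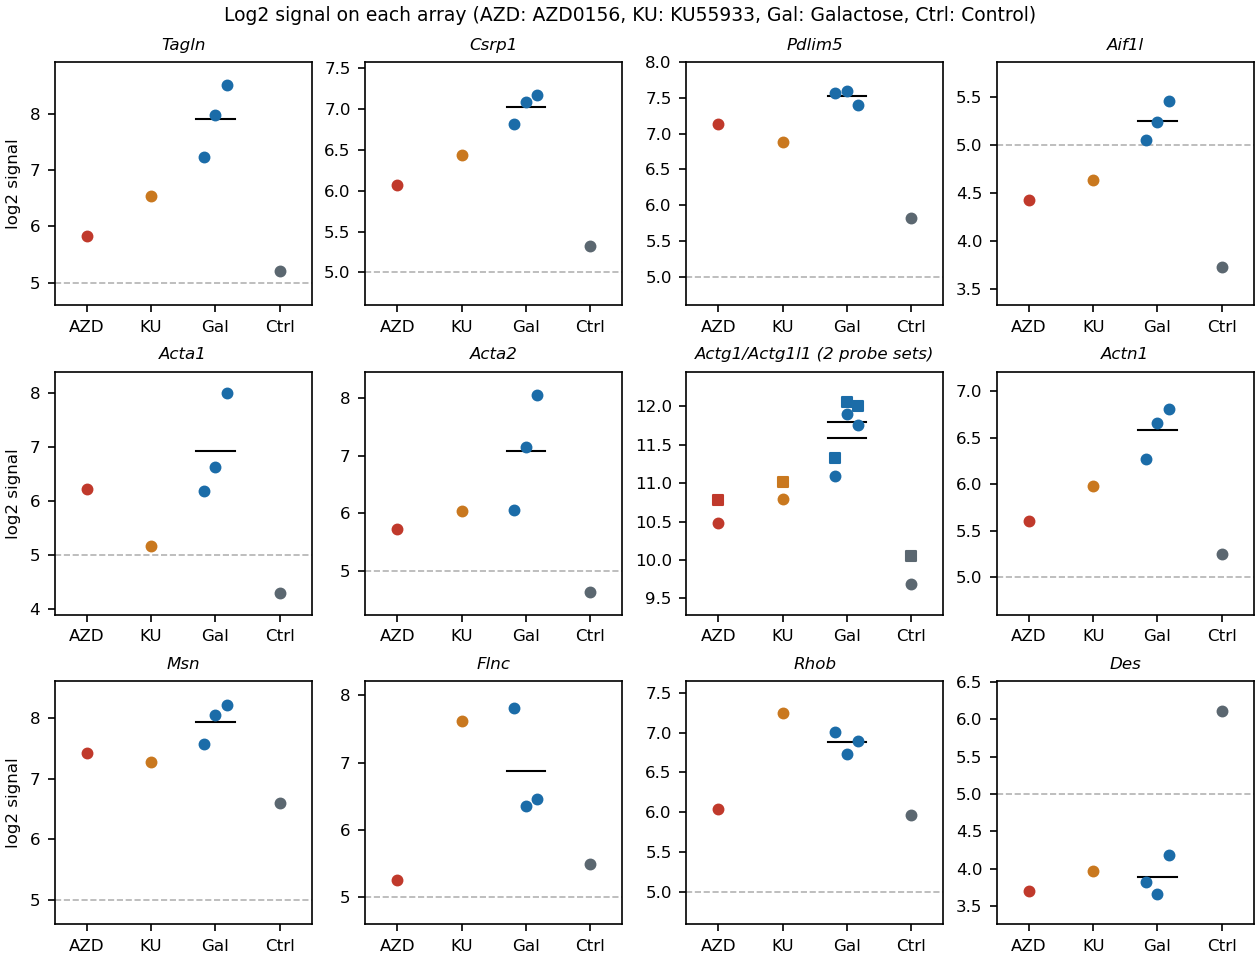
Log2 signal on each of the 6 arrays of the genes described in full except Ankrd1, and of the probe sets shared by Actg1 and Actg1l1, which are drawn in the same panel. Each panel has its own vertical range, with a dashed line at 5 where the range reaches it. Tagln lies at 7.24 to 8.51 on the galactose arrays, above 5.83 and 6.54 with the inhibitors and 5.20 in the Control, while desmin (Des) is above 5 only in the Control.

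The 4 myosin genes tested all had a higher galactose mean, with a median difference of 0.88, and 0 of 4 passed (limma). At an unadjusted p under 0.05, 3 of 4 were higher, beside 11.2% of all probe sets. Myl12a, a regulatory light chain of non-muscle myosin, had 7.67 with AZD0156, 7.90 with KU55933, 8.02, 8.33 and 8.52 in galactose, and 7.09 in the Control, with an adjusted p of 0.0772 for galactose against Control. The heavy chains Myh9 and Myh10 differed by 1.07 and 0.70 (adjusted p = 0.123 and 0.116). All galactose arrays were above the Control for these 3 genes. Myl9, the light chain of smooth muscle myosin, reached 5 on galactose replicate 3 only, at 5.17, and differed by 0.55 (adjusted p = 0.416).

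Crosslinkers and membrane linkers included 1 call among 9 genes (11.1%, against 1.61% of all probe sets called higher), with a median difference of 0.52. Aif1l, an actin-bundling protein, had 4.43 with AZD0156, 4.64 with KU55933, 5.05, 5.24 and 5.47 in galactose, and 3.74 in the Control. It passed the signal minimum only through galactose, so it could enter the test only as a gene that was higher there. The difference was 1.52 ± 0.27 (SE, adjusted p = 0.0429, limma), with adjusted p = 0.0748 with no minimum signal, 0.128 without replicate 2 and 0.131 without replicate 3. Alpha-actinin 1 (Actn1), which crosslinks filaments at adhesions, had 5.61 with AZD0156, 5.98 with KU55933, 6.27, 6.66 and 6.81 in galactose, and 5.25 in the Control. Moesin (Msn), which ties filaments to the membrane, had 7.43 with AZD0156, 7.27 with KU55933, 7.58, 8.05 and 8.21 in galactose, and 6.60 in the Control. Both genes had inhibitor values between the Control and the lowest galactose array. The differences, galactose minus Control, were 1.33 ± 0.27 for Actn1 and 1.34 ± 0.32 for Msn (adjusted p = 0.0564 and 0.0755).

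Filamin C (Flnc), a filamin of muscle, followed another order of arrays. It had 5.25 with AZD0156, 7.62 with KU55933, 7.81, 6.36 and 6.46 in galactose, and 5.49 in the Control. Replicate 1, the lowest galactose array for most members, was the highest here, and the KU55933 array exceeded the other galactose arrays. The difference for galactose minus Control was 1.38 ± 0.55 (SE, adjusted p = 0.196). Flna, Actn4 and Lasp1 had differences of 0.52, 0.51 and 0.33, and the other membrane linkers Rdx and Ezr of 0.14 and -0.30, with no call.

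Among 9 adhesion and LIM proteins 2 rose (22.2%, against 1.61% of all probe sets), and these had the lowest adjusted p of all members. Their values were known when the list was drawn up. Pdlim5, a PDZ and LIM protein that binds alpha-actinin, had 7.14 with AZD0156, 6.88 with KU55933, 7.56, 7.60 and 7.41 in galactose, and 5.82 in the Control. Csrp1, a LIM protein that binds alpha-actinin and zyxin, had 6.06 with AZD0156, 6.44 with KU55933, 6.82, 7.08 and 7.17 in galactose, and 5.32 in the Control. For both, the inhibitor arrays lay above the Control and below every galactose array. The differences, galactose minus Control, were 1.71 ± 0.24 (SE, adjusted p = 0.0316) for Pdlim5 and 1.70 ± 0.25 (adjusted p = 0.0320) for Csrp1. They lost the threshold without replicate 2 (adjusted p = 0.0944 and 0.0832) and without replicate 3 (0.107 for both).

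The other 7 genes of this role had a median difference of 0.03, and that of all 9 was 0.11. Vinculin (Vcl), which couples talin to actin, had 6.73 with AZD0156, 6.16 with KU55933, 6.28, 6.62 and 7.61 in galactose, and 5.45 in the Control, a difference of 1.39 with an adjusted p of 0.151. Talin (Tln1), which activates integrins, differed by 0.71 (adjusted p = 0.117). Paxillin (Pxn), Pdlim7 and kindlin (Fermt2) differed by 0.11, 0.03 and -0.07, and zyxin (Zyx) by -0.40 (adjusted p = 0.411). Fhl1, a LIM protein of muscle, ran the other way, with 5.29 for AZD0156, 5.54 for KU55933, 5.31 to 5.84 in galactose, and 6.53 in the Control (difference -0.96, adjusted p = 0.0957).

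Factors of filament assembly had a median difference of 0.16 over 6 genes, with 0 called (limma). At an unadjusted p under 0.05, 1 of 6 was lower, beside 11.9% of all probe sets. That gene was Arpc2, a subunit of the branching complex Arp2/3, with 10.03 for AZD0156, 10.14 for KU55933, 9.80 to 9.87 in galactose, and 10.44 in the Control, a difference of -0.62 (adjusted p = 0.136). Its partner subunit Arpc5 differed by 0.50 on the brighter of its own 2 probe sets and by 1.05 on the other. A further probe set, shared by Arpc5 and Arpc5l-ps3, was level, with a difference of 0.02 (adjusted p = 0.974, limma). Profilin (Pfn1), which feeds monomers to filaments, differed by -0.40, Cap1 by 0.30, the capping subunit Capzb by 0.27 and Tmsb10, which holds free actin, by 0.05. The probe set shared by cofilin (Cfl1), which severs filaments, and Cfl1l1 differed by 0.50 (adjusted p = 0.328).

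Desmin, the intermediate filament protein of muscle, was the one member that fell. Des had 3.70 with AZD0156, 3.96 with KU55933, 3.82, 3.65 and 4.18 in galactose, and 6.11 in the Control. Only the Control array was above 5, so the gene passed the signal minimum through that single array. The difference, galactose minus Control, was -2.23 ± 0.38 (SE, adjusted p = 0.0385, limma), and it did not pass without replicate 2 or without replicate 3 (adjusted p = 0.105 for both). Vimentin (Vim), the intermediate filament of lens epithelium and young fibres, had 11.99 with AZD0156, 11.94 with KU55933, 11.54, 12.42 and 12.43 in galactose, and 12.53 in the Control, a difference of -0.40 (adjusted p = 0.530).

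The 4 regulators had higher galactose means without a call. At an unadjusted p under 0.05, 3 of 4 were higher (limma), beside 11.2% of all probe sets, and 1 of these was Ankrd1, which entered the test only through galactose. Rhob, a small GTPase, had 6.04 with AZD0156, 7.24 with KU55933, 7.01, 6.74 and 6.89 in galactose, and 5.96 in the Control. The AZD0156 array was close to the Control and the KU55933 array above all galactose arrays. Rhob differed by 0.92 ± 0.24 (SE, adjusted p = 0.0927) for galactose minus Control, and Rhoa, which drives stress fibre formation, by 0.83 (adjusted p = 0.0838). Ankrd1, a stress-responsive ankyrin repeat protein, had 2.88 with AZD0156, 4.34 with KU55933, 5.28, 4.48 and 3.91 in galactose, and 3.15 in the Control, and reached 5 on 1 galactose array only. Srf, described above, had a difference of 0.16 (adjusted p = 0.707).

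With Atm inhibited, the arrays of both compounds gave lower values than galactose for most of the set, 39 of 43 genes with AZD0156, where 70.8% of all probe sets were lower too, and 31 with KU55933, where 42.9% were. No single gene passed. Of the 43 genes 0 were called with either inhibitor, beside 0.0% of all probe sets tested (limma). At an unadjusted p under 0.05, 13 members were lower with AZD0156 and 0 higher, beside 12.4% and 1.33% of all probe sets. With KU55933, 3 were lower and 0 higher, beside 1.16% and 2.3%. The lowest adjusted p among members was 0.213 for AZD0156 and 0.992 for KU55933. The median difference, AZD0156 minus galactose, was -0.38 over the 43 genes, but the whole array was shifted, with a median of -0.18 over all probe sets tested. Centring each array on its median leaves a member median of -0.18. For KU55933 minus galactose the median was -0.24 over the members and 0.05 over all probe sets. In limma, without galactose replicate 1, 18 members were lower with AZD0156 (18.1% of all probe sets called in either direction), and with KU55933 11 were lower and 1, Flnc, higher (7.59% of all called). Without replicate 2 or 3 there was no call.

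Both comparisons share the galactose arrays, so a low or high galactose replicate moves them together. AZD0156 lay below all galactose arrays for 28 of 43 members (65.1%, against 46.6% of all probe sets) and above them for 2 (4.65%, against 14.2%). KU55933 lay below for 19 (44.2%, against 17.7%) and above for 7 (16.3%, against 29.9%). Both inhibitor arrays were below all galactose arrays for 15 members (34.9%, against 12.1%): Acta2, Actb, Actn1, Aif1l, Csrp1, Flna, Lasp1, Msn, Myl12a, Pdlim5, Pdlim7, Tagln, Tagln2, Tpm1 and Tpm4. They held 2 actins, 4 filament-binding proteins and 5 crosslinkers or membrane linkers. Aif1l, and Ankrd1 among the 28 of AZD0156, reached the signal minimum only through galactose, so an inhibitor array could not be the highest for them. The list was drawn up with earlier results of these arrays known, so the members' shares for the inhibitors are no independent support. The summed lens epithelium markers given above were at 637 with AZD0156 and 606 with KU55933. That is lower than on galactose replicates 2 and 3 but higher than on replicate 1, at 466. Their part in these differences was not tested.

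**Figure D4:**
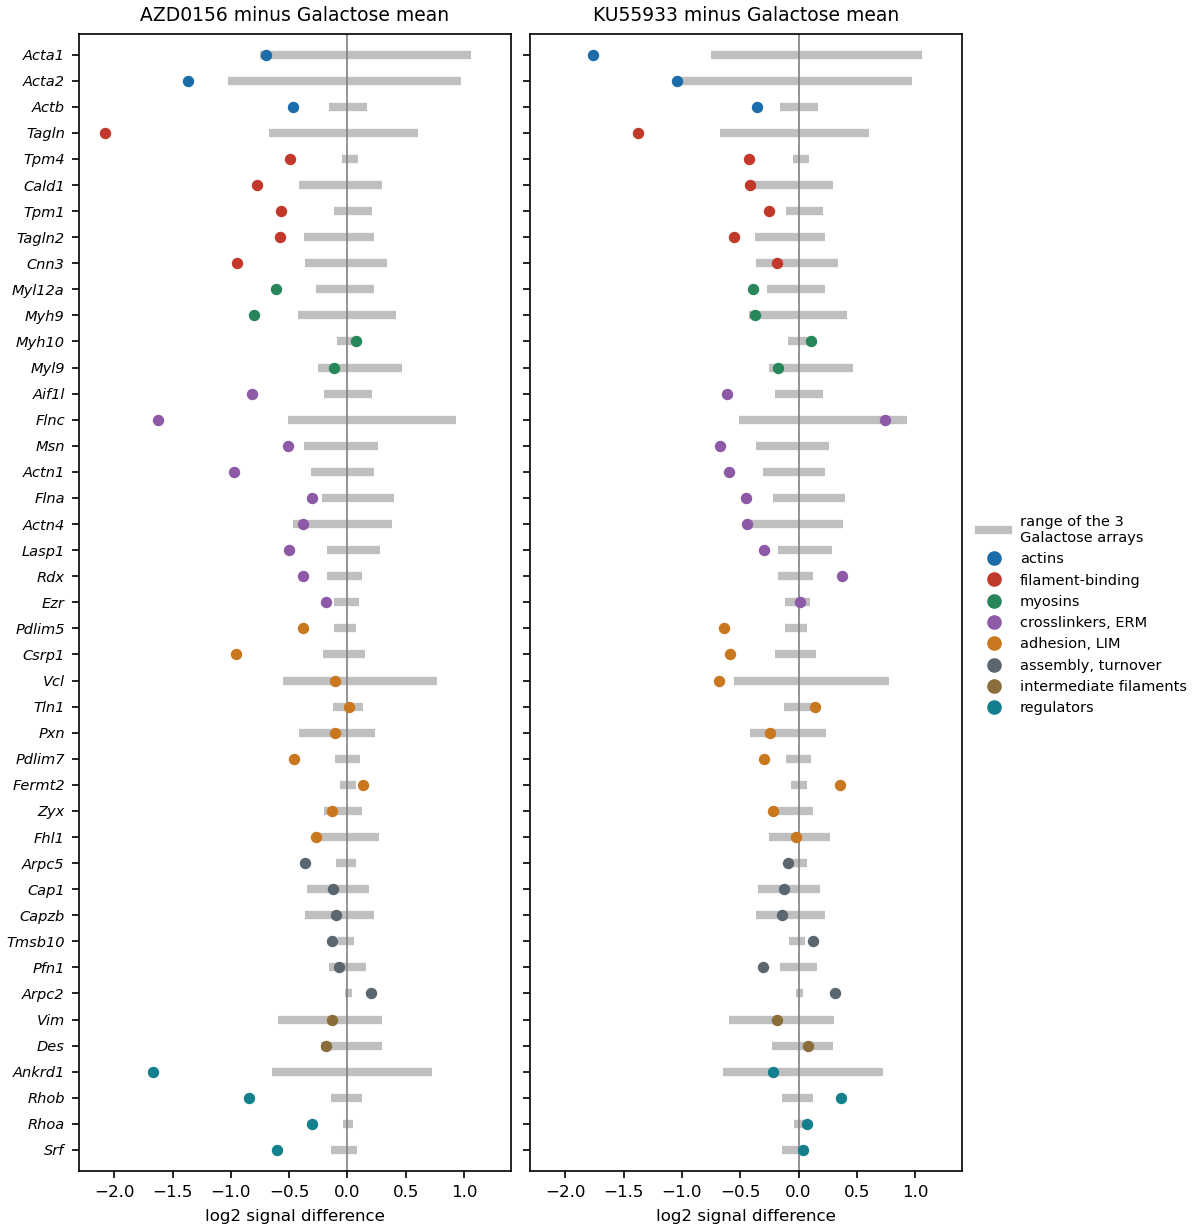
Difference in log2 signal, AZD0156 minus the galactose mean and KU55933 minus the galactose mean, for the 43 genes by role. The members' medians are -0.38 for AZD0156 and -0.24 for KU55933, with no gene called by the test.

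Tagln showed the widest AZD0156 difference of any member, -2.08 (adjusted p = 0.213, limma), and differed by -1.37 with KU55933 (adjusted p = 0.992). Acta1 differed by -0.70 with AZD0156 and was widest for KU55933, at -1.76. Acta2 differed by -1.37 with AZD0156 and -1.04 with KU55933. These values turned on single galactose arrays: without replicate 3 and without replicate 1, Acta1 differed by -0.17 and -1.07 with AZD0156, and Acta2 by -0.56 and -1.55 with KU55933. Actn1 differed by -0.97 with AZD0156 and -0.60 with KU55933, and Csrp1 by -0.96 and -0.59 in the same order. For Tagln, Acta2, Actn1 and Csrp1 both differences were negative, but none passed. Pdlim5 differed by -0.38 with AZD0156 and by -0.64 with KU55933. The 3 members with an unadjusted p under 0.05 for KU55933 were Tagln, Acta1 and Pdlim5. Cnn3 differed by -0.95 with AZD0156 and -0.19 with KU55933, and Vcl by -0.11 and -0.68.

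The compounds were compared directly as AZD0156 minus KU55933 at the same dose and time, 1 pair of arrays, 1 array each, with p-values adjusted over all 5785 probe sets. Of the members 0 were called, beside 0.0% of all probe sets (limma; 4 lower and 0 higher at an unadjusted p under 0.05, beside 10.7% and 0.864% of all; lowest adjusted p = 0.316), and the members' median of -0.20 stood beside -0.23 for all probe sets. Centring each array on its median turned the members' median to 0.0347. Flnc differed by -2.36 (95% interval -3.96 to -0.77, adjusted p = 0.329) and Rhob by -1.21 (-1.91 to -0.50, adjusted p = 0.316). Rdx differed by -0.75 (-1.47 to -0.02) and Srf by -0.65 (-1.27 to -0.03). For all 4 the AZD0156 value was the lower. These members had the only intervals that left out 0. For Tagln the interval ran from -2.04 to 0.64, for Acta1 from -0.74 to 2.86, for Acta2 from -2.23 to 1.58 and for Pdlim5 from -0.45 to 0.97, so for these genes equal values and differences of more than 0.5 in at least 1 direction both lay inside it. The median distance from the difference to either bound of its interval was 0.79 for the members.

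**Figure D5:**
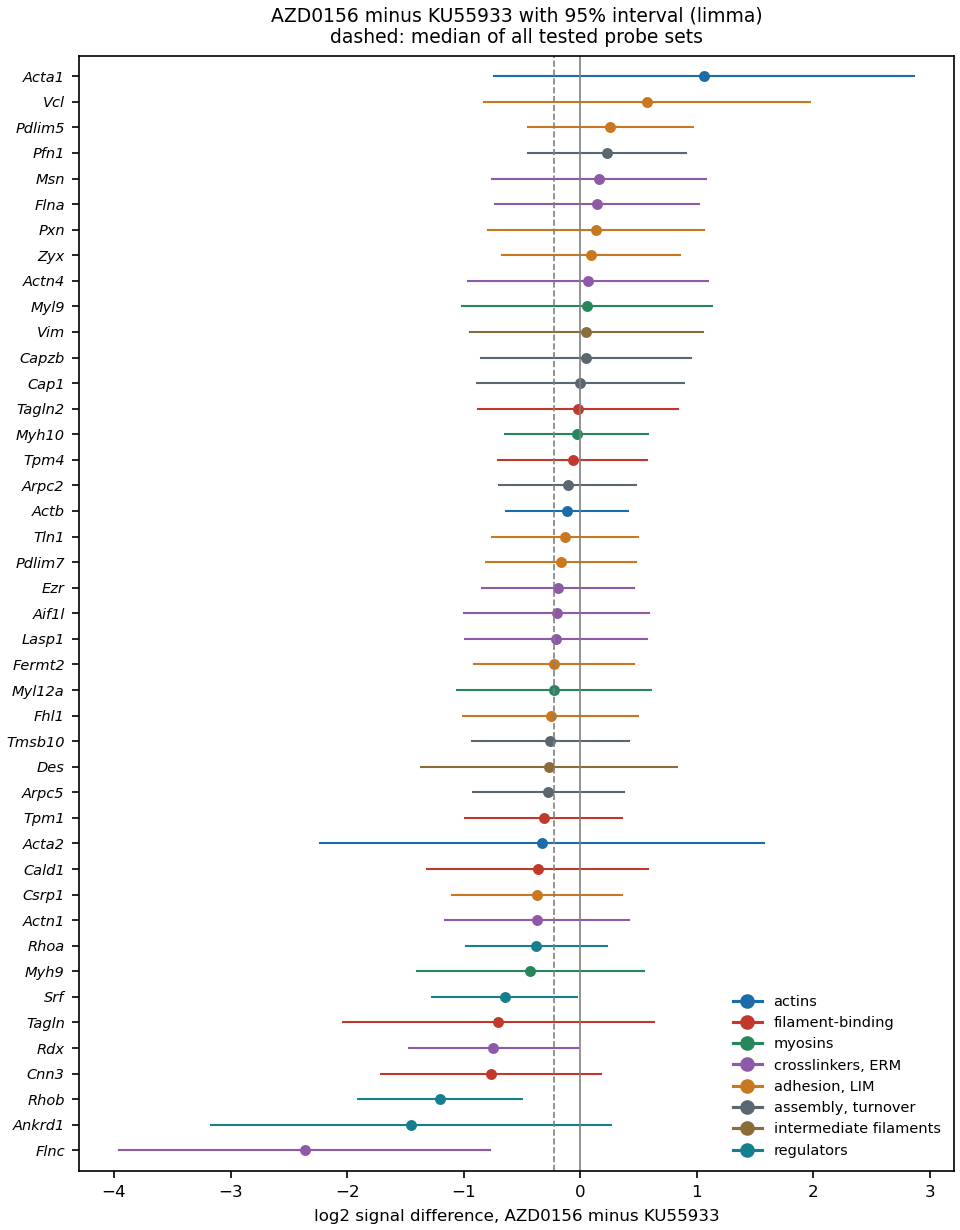
Difference in log2 signal, AZD0156 minus KU55933, for the 43 genes with the 95% interval of the limma fit. Flnc, at -2.36, lies farthest from 0 and Rhob is at -1.21, and most intervals span 0.

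Other genes of the same pathway gave no call. The list of the actin and adhesion pathway outside the set held 83 symbols, with an older name beside the current one for some genes. Of the symbols, 68 had a probe set and 46 were tested, and 0 were called in any comparison (limma). At an unadjusted p under 0.05 there were 9 in galactose against Control, 7 with AZD0156, 1 with KU55933 and 3 for AZD0156 against KU55933. Of all probe sets, 23.1%, 13.8%, 3.46% and 11.5% were under 0.05 in these comparisons, in the same order. Their median difference was 0.12 for galactose minus Control, -0.25 for AZD0156 minus galactose and -0.04 for KU55933 minus galactose. The lowest adjusted p, 0.0675, belonged to Rock1, a kinase that promotes actomyosin contraction, with a difference of -0.91 for galactose minus Control.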

How the data were processed

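Per the methods, the authors made the deposited log2 signals in R with the Robust Multi-array Average (RMA) procedure, applied to the 6 arrays together. The package, its version and the annotation are not named in what was read here. These values were used without further normalization. Of 36685 probe sets, 19086 were linked to a gene by the platform annotation. Those with a signal of at least 5 on at least 1 array, the minimum of the study's methods, were tested together with the Acta2 probe set (5785).

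All 6 arrays entered 1 fit with 4 group means in limma 3.58.1 (R 4.3.3), with 2 residual degrees of freedom, moderation with a trend (prior degrees of freedom 4.95) and Benjamini-Hochberg adjustment at 0.05. The spread came from the galactose group (3 arrays), which lends its spread to every single array. Precision is limited by how few arrays there were: the median standard error was 0.272 for members. The fit was tested on simulated data in which every probe set had the same spread, unlike on these arrays. Where a gene had more than 1 probe set of its own, the brightest stands for it.

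The members and lists were chosen with earlier results of these data known. Described in full were members called in any comparison, those with the largest differences, and the actin network genes of the study. Alternatives changed the scaling, moderation, signal minimum, replicates and probe set averaging. Promoters came from RefSeq (GRCr8).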

Additional observations from a re-analysis of the deposited data

How the results depend on the processing

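No paired analysis was possible because only the galactose group carries replicate numbers. With each array centred on its median, 9 members passed in galactose against Control in place of 5. The share of all probe sets called was 4.13% in place of 2.87%. With no minimum signal 3 of 50 members passed, beside 0.362% of all 19087 probe sets. The same centring moved the members' median difference to -0.18 for AZD0156 minus galactose and to 0.0347 for AZD0156 minus KU55933. Leaving out 1 galactose array gave 0 to 25 calls in galactose against Control. It gave 0 to 18 for AZD0156 and 0 to 12 for KU55933 against galactose, and 0 to 5 for AZD0156 against KU55933. Without replicate 1, 28.3%, 18.1%, 7.59% and 13.8% of all probe sets were called, in the same order. The high counts all came without replicate 1, where 1 residual degree of freedom was left and the prior degrees of freedom were 99.7 in place of 4.95, and the counts of 0 without replicates 2 and 3. Over the same fits the members' median ran from 0.39 to 0.64 for galactose minus Control, from -0.47 to -0.33 for AZD0156 and from -0.37 to -0.16 for KU55933 minus galactose. Of the differences of single genes, 376 kept their direction and side of the threshold, 28 passed it, 12 lost it and 4 changed sign. Those 4 were near 0: Des at 0.0131 for AZD0156 minus galactose and Aif1l at 0.0347 for AZD0156 minus KU55933 with centring, and, for KU55933 minus galactose, Ankrd1 at 0.15 without replicate 1 (-0.54 to 0.15 over the fits that leave out 1 array) and Des at -0.0330 without replicate 2 (-0.0330 to 0.23). The cause of these changes was not tested.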

Other observations

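Flnc and Ankrd1 were highest on galactose replicate 1, the array with the lowest galactose value for most members. Ccn2, a matrix-associated protein chosen after its values were seen, was also highest on that array, with 5.90 for AZD0156, 6.55 for KU55933, 7.69, 6.11 and 6.77 on galactose replicates 1, 2 and 3, and 6.80 in the Control. Its difference for galactose minus Control was 0.06 (adjusted p = 0.961, limma), so the spread among the galactose arrays was larger than the difference between the groups.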
